A study of Mus musculus with 15 samples.

Results

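The genes described here encode the subunits of the interleukin-12 cytokine family and interleukin-15: Il12a, Il23a, Il27, Il12b, Ebi3 and Il15. They were chosen by symbol, 6 of the 55571 rows of the count table, in RNA sequencing of E0771, a mouse mammary carcinoma cell line grown here without T cells. Il12b is among them because its level had been seen to differ between cells with the Malt1_PD construct and cells with Malt1_WT, so its values in comparisons with either of those groups, and the values of every one of these genes in that contrast, are given as a description with no test. There were 5 groups of 3 libraries. Malt1_WT cells expressed wild-type Malt1, the paracaspase that joins CARD proteins and BCL10 in a signalling complex upstream of NF-kB. Malt1_PD cells expressed a mutant whose columns carry the substitution C461A, a cysteine of the protease domain. Malt1_V87R and Malt1_L88D cells expressed mutants at neighbouring residues of the N-terminal death domain, through which MALT1 binds BCL10. Vector cells carried the control vector. All groups share the E0771 background with its own Malt1 gene, and the labels do not say whether a line is a clone or a pool, or whether replicates are separate cultures. The p-values therefore speak of the variation among libraries, part or all of which may be technical.

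Cytokines of the interleukin-12 family are heterodimers. Interleukin-12 pairs the α subunit p35 (Il12a) with the β subunit p40 (Il12b), interleukin-23 pairs p19 (Il23a) with the same p40, and interleukin-27 pairs p28 (Il27) with EBI3 (Ebi3). They are best known as products of activated dendritic cells and macrophages that direct T and NK cells. Interleukin-15 is a single-chain cytokine that sustains NK cells and memory CD8 T cells, and it is presented on the surface of the producing cell by its own receptor chain, Il15ra.

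Library totals ran from 15471746 to 21458457 counts. Malt1 itself averaged 201.9 ± 7.96 CPM (the count scaled to library size, with TMM factors) in Malt1_WT, 249.8 ± 8.86 in Malt1_PD, 279.5 ± 1.35 in Malt1_V87R, 251.3 ± 6.73 in Malt1_L88D and 28.1 ± 1.92 in Vector (SD, n = 3 each, as for every mean below), counts that cannot tell the construct from the cell's own gene. Changes were tested with edgeR's quasi-likelihood test over 14571 genes, and a gene was called at a Benjamini-Hochberg adjusted p under 0.05 over all of them. Il23a and Il15 passed the filter on low counts in all 15 libraries. Il12b passed it in 7 libraries, and Malt1_WT and Malt1_PD were the groups with all 3 of their libraries above it. Il12a, Il27 and Ebi3 did not pass and are given as counts. In whole cultures, fewer cells that make a transcript and less transcript per cell cannot be told apart.

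Il23a was, per length, the most abundant of the 6 transcripts and was high in Malt1_WT and Malt1_PD cells. The gene encodes the p19 subunit that sets interleukin-23 apart from interleukin-12 and lies on chromosome 10, minus strand (chr10:128296139-128298752, GRCm38, ENSMUSG00000025383.2, protein coding). Its level was 69.1, 69.7 and 69.5 CPM in the Malt1_WT libraries and 71.5, 65.5 and 66.3 CPM in the Malt1_PD libraries. The other libraries had 8.82, 9.57 and 10.1 CPM (Malt1_V87R), 7.76, 11.1 and 10.9 CPM (Malt1_L88D), and 7.75, 6.38 and 7.68 CPM (Vector). The libraries of Malt1_WT and Malt1_PD overlapped and stood far above the other 9, and those of Malt1_V87R and Malt1_L88D overlapped each other and lay above the Vector libraries, narrowly so for Malt1_L88D replicate 1. Against Vector, Il23a was 9.46-fold higher in Malt1_WT (log2 difference 3.24 ± 0.09, SE; adjusted p = 3.95e-19) and 9.24-fold higher in Malt1_PD (3.21 ± 0.09; adjusted p = 8.73e-19). Against Malt1_WT, it was 0.977-fold in Malt1_PD, with no test.

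Both death-domain mutants held Il23a well below the wild-type level, at 0.137-fold in Malt1_V87R and 0.144-fold in Malt1_L88D. The log2 difference against Malt1_WT was -2.87 ± 0.09 in Malt1_V87R (adjusted p = 2.82e-18) and -2.80 ± 0.09 in Malt1_L88D (adjusted p = 6.83e-18). Against Vector, a small rise remained, 1.30-fold in Malt1_V87R (log2 0.37 ± 0.11, adjusted p = 0.0315) and 1.36-fold in Malt1_L88D (log2 0.45 ± 0.11, adjusted p = 0.00779). The calls of these small rises were near the threshold and were lost without some single libraries, while the log2 difference stayed positive. It ran from 0.294 to 0.422 in Malt1_V87R and from 0.357 to 0.583 in Malt1_L88D over left-out libraries. The call in Malt1_V87R was lost without Vector replicate 2 (adjusted p = 0.11), Vector replicate 3 (0.055), Malt1_V87R replicate 2 (0.097) or Malt1_V87R replicate 3 (0.11), and the call in Malt1_L88D was lost without Malt1_L88D replicate 2 (0.073). Lyz2, a lysozyme gene of macrophages, was at 5.49, 19.5 and 16.2 CPM in Malt1_L88D and 3.26, 5.53 and 6.21 CPM in Malt1_V87R. In Vector it was at 5.71, 5.59 and 5.68 CPM. Cd14, another macrophage marker, was at 8.13, 8.56 and 8.39 CPM in Malt1_L88D and 8.67, 7.39 and 8.97 CPM in Malt1_V87R. In Vector Cd14 was at 7.75, 8.23 and 8.13 CPM. The part of other cells in the small rises was not tested. Between Malt1_V87R and Malt1_L88D, which differ in the residue replaced, the log2 difference was -0.07 (95% interval -0.30 to 0.15, adjusted p = 0.942).

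**Figure D1:**
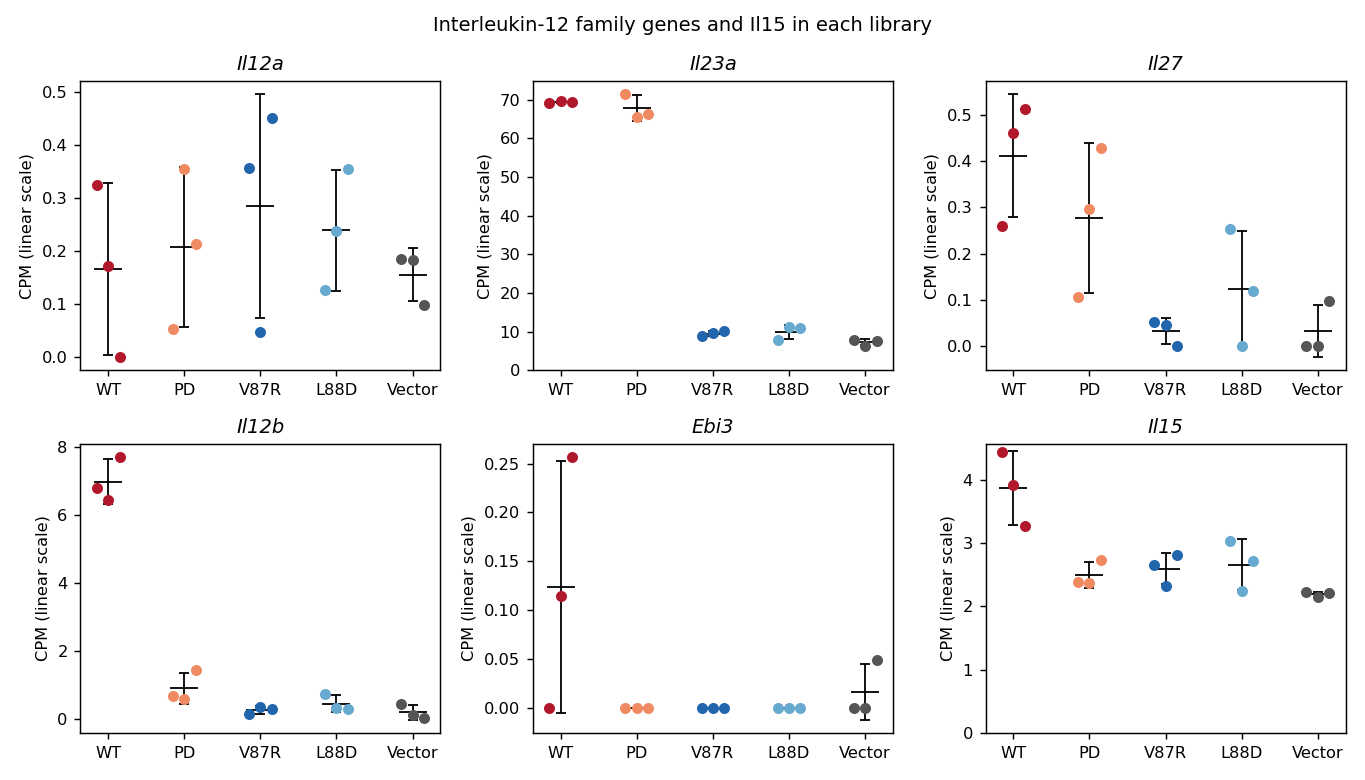
CPM of the 6 genes in each library (points) with the group mean and SD (bars) in Malt1_WT, Malt1_PD, Malt1_V87R, Malt1_L88D and Vector cells, 3 libraries a group, each gene on its own axis. Il23a is near 70 CPM in Malt1_WT and Malt1_PD and between 6.38 and 11.1 CPM elsewhere, while Il12b is at 6.44 to 7.70 CPM in Malt1_WT and at most 1.44 CPM in the other groups.

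The other α subunits were close to the detection limit. Il12a, on chromosome 3 (chr3:68690644-68698547, plus strand, ENSMUSG00000027776.12), had 5, 3 and 0 counts in Malt1_WT, 1, 6 and 4 in Malt1_PD, 7, 1 and 9 in Malt1_V87R, 2, 5 and 6 in Malt1_L88D, and 4, 3 and 2 in Vector. Summed over a group this was 8 counts in Malt1_WT (exact 95% Poisson interval 3.45 to 15.8), 11 in Malt1_PD (5.49 to 19.7), 17 in Malt1_V87R (9.9 to 27.2), 13 in Malt1_L88D (6.92 to 22.2) and 9 in Vector (4.12 to 17.1). The libraries of all groups overlapped, so no difference in the p35 transcript was detectable at this depth.

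Il27, on chromosome 7 (chr7:126589010-126594941, minus strand, ENSMUSG00000044701.5), had 4, 8 and 8 counts in Malt1_WT, 2, 5 and 8 in Malt1_PD, 1, 1 and 0 in Malt1_V87R, 4, 0 and 2 in Malt1_L88D, and 0, 0 and 2 in Vector. The group sums were 20 counts in Malt1_WT (12.2 to 30.9) and 15 in Malt1_PD (8.4 to 24.7), and 2 in Malt1_V87R (0.242 to 7.22), 6 in Malt1_L88D (2.2 to 13.1) and 2 in Vector (0.242 to 7.22). The higher counts were thus in the groups that also had high Il23a, at levels of a few reads per library. When the filter was lifted, Il27 was called higher in Malt1_WT (log2 3.35 ± 0.96, adjusted p = 0.0025) and Malt1_PD (2.80 ± 1.00, adjusted p = 0.029), each against Vector, and lower in Malt1_V87R against Malt1_WT (-3.40, adjusted p = 0.0023), and was not called in Malt1_L88D against Malt1_WT (-1.79, adjusted p = 0.12). Exons of Il27 are overlapped on the other strand by Apobr, which had 496 to 891 counts per library, and the strand setting of the counting is not given in the sources used here, so reads of the pair cannot be told apart with certainty. The Apobr sums were 2120 counts in Malt1_WT, 2423 in Malt1_PD, 2308 in Malt1_V87R, 1969 in Malt1_L88D and 1900 in Vector.

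Il12b, the p40 subunit that interleukin-12 and interleukin-23 share, followed another pattern than Il23a: it was high in Malt1_WT alone, and low in Malt1_PD. The gene lies on chromosome 11 (chr11:44400063-44414033, plus strand, ENSMUSG00000004296.14). For the β subunits, the 250 bases before the annotated start are given. Il12b was chosen for its level in Malt1_PD against Malt1_WT, and Ebi3 is its counterpart near 0. The sequences come from RefSeq's annotation of GRCm38.p6, which gave promoters for 3 of the 6 genes (Il12a with 2 starts, Il12b and Ebi3). Capitals in Il12b (chr11:44399813-44400062) mark an NF-kB half-site AAATTCCCC, 130 to 122 bases before the start, and a TATATAA box, 30 to 24 bases before it. Capitals in Ebi3 (chr17:55952373-55952622) mark overlapping matches, on both strands, to the NF-kB consensus (GGG, any 5 bases, CC), 44 to 34 bases before the start.
Il12b: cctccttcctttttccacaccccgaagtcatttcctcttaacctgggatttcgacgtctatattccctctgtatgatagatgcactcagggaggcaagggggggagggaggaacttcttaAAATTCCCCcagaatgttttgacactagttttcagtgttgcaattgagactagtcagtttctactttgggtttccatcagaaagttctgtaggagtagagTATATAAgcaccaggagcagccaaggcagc
Ebi3: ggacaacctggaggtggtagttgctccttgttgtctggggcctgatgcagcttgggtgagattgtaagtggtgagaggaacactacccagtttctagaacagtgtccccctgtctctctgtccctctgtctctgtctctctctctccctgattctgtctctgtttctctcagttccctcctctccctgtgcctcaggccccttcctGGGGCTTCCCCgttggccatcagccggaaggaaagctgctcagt
The half-site and TATATAA were added to the search after the Il12b sequence had been seen. On either strand of 32851 RefSeq promoters of this length, AAATTCCCC was found in 0.231%, TATATAA in 3.04% and the NF-kB consensus in 45.8%. The Il12b window held no match to the NF-kB consensus, to the interferon regulatory factor pattern (GAAA, any 2 bases, GAAA), to TTGCNNAA (the C/EBP pattern) or to TGANTCA (the AP-1 pattern), and of the Il12a starts, 1 held an NF-kB match. A match is a stretch of letters and no measured binding.

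Il12b had 104, 112 and 120 counts in the Malt1_WT libraries and 13, 10 and 27 in the Malt1_PD libraries. It had 3, 8 and 6 counts in Malt1_V87R, 12, 7 and 5 in Malt1_L88D, and 10, 2 and 1 in Vector. In CPM this was 6.78, 6.44 and 7.70 in Malt1_WT, 0.690, 0.593 and 1.44 in Malt1_PD, 0.153, 0.372 and 0.301 in Malt1_V87R, 0.757, 0.333 and 0.295 in Malt1_L88D, and 0.464, 0.123 and 0.0489 in Vector. No Malt1_WT library overlapped any other. The Malt1_PD libraries overlapped those of Malt1_L88D and lay above those of Vector, and Malt1_L88D, Malt1_V87R and Vector overlapped one another.

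In the contrast that chose the gene, Il12b in Malt1_PD was 0.132-fold of Malt1_WT (log2 -2.92). Over left-out libraries this log2 difference ran from -3.43 (without Malt1_PD replicate 3) to -2.71. The Malt1_V87R level was 0.0408-fold of Malt1_WT and the Malt1_L88D level 0.0652-fold. Against Vector the level was 30.4-fold in Malt1_WT and 4.03-fold in Malt1_PD, folds that rest on a Vector sum of 13 counts (6.92 to 22.2); without Vector replicate 1, which held 10 of them, the log2 differences were 6.31 in place of 4.93 in Malt1_WT and 3.39 in place of 2.01 in Malt1_PD. Among Malt1_V87R, Malt1_L88D and Vector all but 1 of the 9 libraries were under the filter, which Il12b passed through Malt1_WT and Malt1_PD, so the values among these groups are also given with no test. The log2 difference was 0.31 ± 0.66 in Malt1_V87R against Vector (95% interval -1.06 to 1.69; -0.17 to 1.69 over left-out libraries), 0.99 ± 0.62 in Malt1_L88D against Vector (-0.29 to 2.26; 0.49 without Malt1_L88D replicate 1 to 2.36 without Vector replicate 1) and -0.67 ± 0.58 between Malt1_V87R and Malt1_L88D (-1.87 to 0.53). These intervals span several-fold changes, which the counts could not resolve.

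Ebi3, on chromosome 17 (chr17:55952640-55957022, plus strand, ENSMUSG00000003206.7), was nearly undetected. It had 0, 2 and 4 counts in Malt1_WT (sum 6, 2.2 to 13.1), none in any library of Malt1_PD, Malt1_V87R or Malt1_L88D, and 0, 0 and 1 in Vector (sum 1, 0.0253 to 5.57). For a sum of 0 the same interval reaches 3.69 counts. A floor of 3 counts over the group, somewhat below that limit, is 0.0541 CPM for Malt1_PD, 0.0493 CPM for Malt1_V87R and 0.0564 CPM for Malt1_L88D. Such floors and intervals cover counting error only. The gene overlaps Gm16712 on the other strand, with 0 to 6 counts per library. Both chains of interleukin-27 were thus at a few counts at most in every library.

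Levels of the shared and specific chains can be set side by side per length (CPM per kb of merged exons in GENCODE M21). Il23a averaged 30.9 CPM per kb in Malt1_WT, 30.2 in Malt1_PD, 4.22 in Malt1_V87R, 4.41 in Malt1_L88D and 3.24 in Vector. Il12b averaged 3.55 CPM per kb in Malt1_WT, 0.462 in Malt1_PD, 0.140 in Malt1_V87R, 0.235 in Malt1_L88D and 0.108 in Vector. In every library the p19 transcript outnumbered the p40 transcript. The ratio of Il23a to Il12b per length was 8.92, 9.47 and 7.89 in Malt1_WT and 90.8, 96.7 and 40.2 in Malt1_PD. With Il23a alike in both groups, that difference restates the Il12b contrast that chose the gene, and nothing further is read from it. In the other groups the ratio was between 8.97 and 137 on few Il12b counts and gives no order. In Malt1_WT, Il12a stood at 0.0977 CPM per kb, below Il12b.

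Il15 was expressed at a low level in all groups and was highest in Malt1_WT. It lies on chromosome 8 (chr8:82331632-82403222, minus strand, ENSMUSG00000031712.10). Its level was 4.43, 3.91 and 3.27 CPM in Malt1_WT and 2.39, 2.37 and 2.73 CPM in Malt1_PD. It was 2.65, 2.32 and 2.81 CPM with Malt1_V87R, 3.03, 2.24 and 2.72 CPM with Malt1_L88D, and 2.23, 2.15 and 2.20 CPM in Vector, on 35 to 68 counts a library. The Malt1_WT libraries were above all others, the 3 mutants overlapped one another, and every library with a Malt1 construct lay above the Vector libraries. For Malt1_L88D replicate 2 this was by a narrow margin, 2.236 CPM against 2.228 CPM in Vector replicate 1. Against Vector, Il15 rose 1.76-fold in Malt1_WT (log2 0.82 ± 0.17, adjusted p = 0.000342). It did not pass the test in Malt1_PD (log2 0.19, 95% interval -0.20 to 0.57, adjusted p = 0.447), Malt1_V87R (0.24, -0.13 to 0.61, adjusted p = 0.456) or Malt1_L88D (0.26, -0.12 to 0.64, adjusted p = 0.359). Against Malt1_WT, it fell to 0.669-fold in Malt1_V87R (adjusted p = 0.00629) and 0.681-fold in Malt1_L88D (adjusted p = 0.0104), and was 0.646-fold in Malt1_PD, with no test. The Malt1_L88D call was lost without Malt1_L88D replicate 2 (adjusted p = 0.069) or Malt1_WT replicate 1 (0.061). Between Malt1_V87R and Malt1_L88D the log2 difference was -0.02 (-0.39 to 0.34, adjusted p = 0.991).

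Calls are read against the share of all tested genes that were called. Outside the contrast and gene that fixed the choice, Il23a and Il15 were both called higher in Malt1_WT against Vector, where 55% of genes were called and 27.3% were called higher. Il23a and not Il15 was called in the other comparisons with Vector: in Malt1_PD, where 44.8% of genes were called and 22.8% higher, in Malt1_V87R, where 11.6% were called and 7.09% higher, and in Malt1_L88D, where 17.2% were called and 9.09% higher. Both were called lower in Malt1_V87R against Malt1_WT, where 48.5% of genes were called and 23.5% lower, and in Malt1_L88D against Malt1_WT, where 45.3% were called and 22.4% lower. With such shares, a call in Malt1_WT or Malt1_PD does not set a gene apart.

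The libraries of a construct lay wholly above those of Vector for Il23a and Il15 in all 4 constructs. Over all genes this held for 29.2% with Malt1_WT, 24.8% with Malt1_PD, 13.5% with Malt1_V87R and 16.1% with Malt1_L88D. With Malt1_L88D the gaps were narrow, 7.755 against 7.752 CPM for Il23a and 2.236 against 2.228 CPM for Il15. Whether they hold under another scaling was not tested. The libraries of both death-domain mutants lay wholly below those of Malt1_WT for Il23a and Il15, as for 27.5% of all genes in Malt1_V87R and 27% in Malt1_L88D. Il12b also lay below there, but its choice used the Malt1_WT libraries, so nothing is read from it. In Malt1_PD the libraries lay wholly below those of Malt1_WT for Il12b and Il15. Over all genes 15.8% did so, 23.3% were called in that contrast and 10.8% were called lower, from which nothing is read. Between Malt1_V87R and Malt1_L88D, edgeR called 0 genes of the whole table (0%) and DESeq2 also 0. In edgeR, 855 genes had an unadjusted p under 0.05, none of them Il23a or Il15. This was 5.87% of the genes tested, a share close to that threshold. The comparisons with Vector share its 3 libraries, and those with Malt1_WT share that group's.

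**Figure D2:**
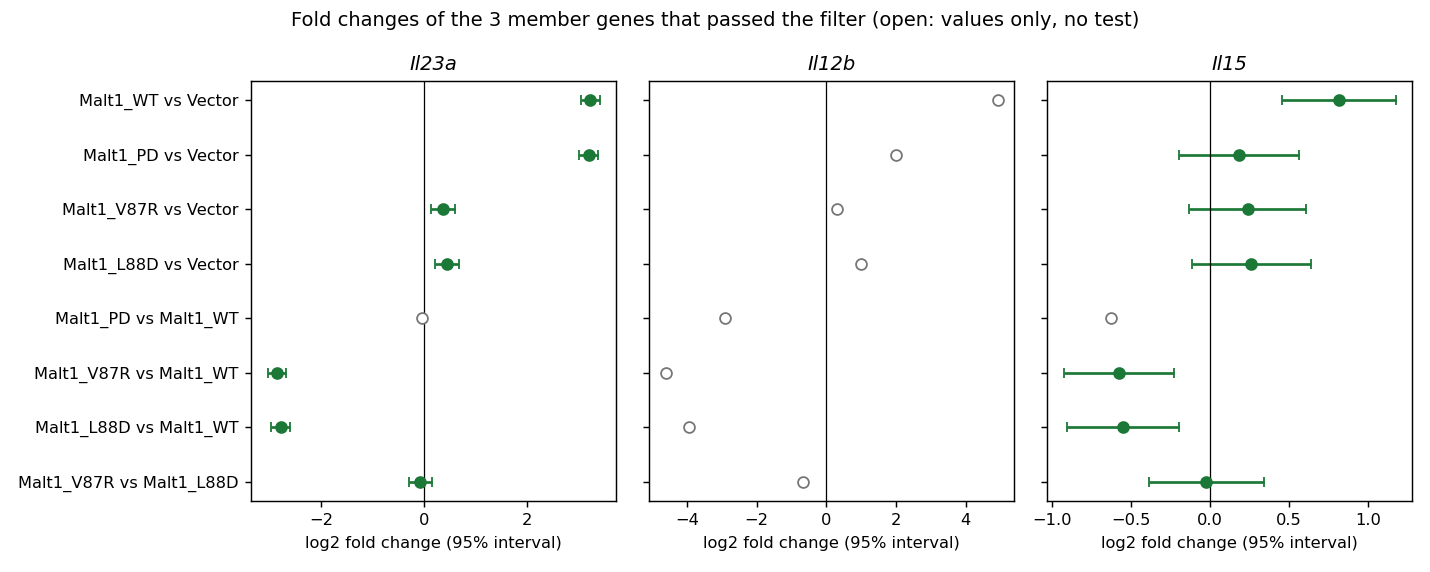
Log2 fold changes of Il23a, Il12b and Il15 in the comparisons made, with 95% intervals from edgeR; open points without an interval are descriptions with no test. Il23a stands at 3.24 in Malt1_WT and 3.21 in Malt1_PD against Vector, while Il12b stands at 4.93 and 2.01 in the same comparisons.

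The receptors of these cytokines split by chain. The list of receptors and their signalling proteins held 19 genes, of which 15 were tested. Chains that recognise interleukin-12 and interleukin-23 were at or near 0: Il12rb1 had at most 1 count in a library, Il23r at most 2, and Il12rb2 between 1 and 9. Stat4, the main transducer of interleukin-12, had at most 2. Il15ra, by contrast, averaged 78.4 ± 5.65 CPM in Malt1_WT, 49.1 ± 1.36 in Malt1_PD, 46.2 ± 0.358 in Malt1_V87R, 43.2 ± 1.59 in Malt1_L88D and 21.0 ± 1.38 in Vector. It was higher than in Vector with every construct: 3.73-fold in Malt1_WT (adjusted p = 8.85e-18), 2.34-fold in Malt1_PD (9.48e-14), 2.20-fold in Malt1_V87R (2.57e-12) and 2.06-fold in Malt1_L88D (1.76e-11). Against Malt1_WT it was lower in both death-domain mutants, by a log2 difference of -0.76 in Malt1_V87R (adjusted p = 6.90e-11) and -0.85 in Malt1_L88D (1.28e-11). Il15 and its presenting chain were thus both highest in Malt1_WT, and Il15ra alone passed the test in the mutants against Vector.

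Il2rg, the common γ chain through which interleukin-15 signals, averaged 35.4 ± 1.06 CPM in Malt1_WT, 41.6 ± 3.60 in Malt1_PD, 21.7 ± 0.429 in Malt1_V87R, 19.6 ± 0.949 in Malt1_L88D and 18.6 ± 1.73 in Vector. It rose against Vector in Malt1_WT (1.90-fold, adjusted p = 2.26e-10) and Malt1_PD (2.23-fold, 3.24e-12), and did not pass the test in Malt1_V87R (0.0669) or Malt1_L88D (0.568). Il27ra, the specific chain of the interleukin-27 receptor, had the same calls at a lower level: 4.04 ± 0.652 CPM in Malt1_WT, 4.08 ± 0.0987 in Malt1_PD, 2.35 ± 0.313 in Malt1_V87R, 2.44 ± 0.289 in Malt1_L88D and 2.36 ± 0.169 in Vector, with folds against Vector of 1.70 in Malt1_WT (adjusted p = 0.0005) and 1.72 in Malt1_PD (0.000427). Il6st, its signalling partner gp130, was 183.0 ± 5.38 CPM in Malt1_WT, 219.2 ± 18.8 in Malt1_PD, 160.0 ± 5.48 in Malt1_V87R, 161.2 ± 4.01 in Malt1_L88D and 142.2 ± 7.31 in Vector, and passed the test against Vector with all 4 constructs, at 1.13- to 1.54-fold. Il2rb, the β chain shared with interleukin-2, was 1.37-fold of Vector in Malt1_WT and did not pass (adjusted p = 0.0604).

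Of the signalling proteins, Socs1, a feedback inhibitor of JAK kinases, averaged 55.2 ± 5.27 CPM in Malt1_WT, 20.0 ± 3.28 in Malt1_PD, 30.1 ± 1.66 in Malt1_V87R, 32.1 ± 0.821 in Malt1_L88D and 10.4 ± 1.80 in Vector. It passed the test against Vector with each construct, from 5.30-fold in Malt1_WT (adjusted p = 3.06e-15) to 1.93-fold in Malt1_PD (3.78e-07). Jak2, a kinase of the interleukin-12 and interleukin-23 receptors, rose 2.97-fold in Malt1_WT, 2.33-fold in Malt1_PD and 1.5-fold in each of Malt1_V87R and Malt1_L88D against Vector (adjusted p = 2.49e-16 in Malt1_WT, and the highest 3.59e-07 in Malt1_L88D). Socs3, which acts at gp130, averaged 384.3 ± 13.2 CPM in Malt1_WT, 308.7 ± 9.14 in Malt1_PD, 269.4 ± 5.89 in Malt1_V87R, 282.4 ± 12.7 in Malt1_L88D and 175.0 ± 7.25 in Vector, and passed the test against Vector with each construct.

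Over the 15 tested genes of that list, 9 were higher and 1 lower (Stat5b, log2 -0.21) in Malt1_WT against Vector, with a median log2 difference of 0.454 against -0.0105 over all genes. In Malt1_PD against Vector, 10 were higher and 2 lower, in Malt1_V87R against Vector 6 higher and 0 lower, and in Malt1_L88D against Vector 7 higher and 0 lower. Against Malt1_WT, 2 were higher and 7 lower in Malt1_V87R, and the counts were the same in Malt1_L88D. These counts are to be read beside the shares of all tested genes called, given above. In Malt1_PD against Malt1_WT 3 were higher and 7 lower, a count from the contrast that chose the genes from which nothing is read.

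**Figure D3:**
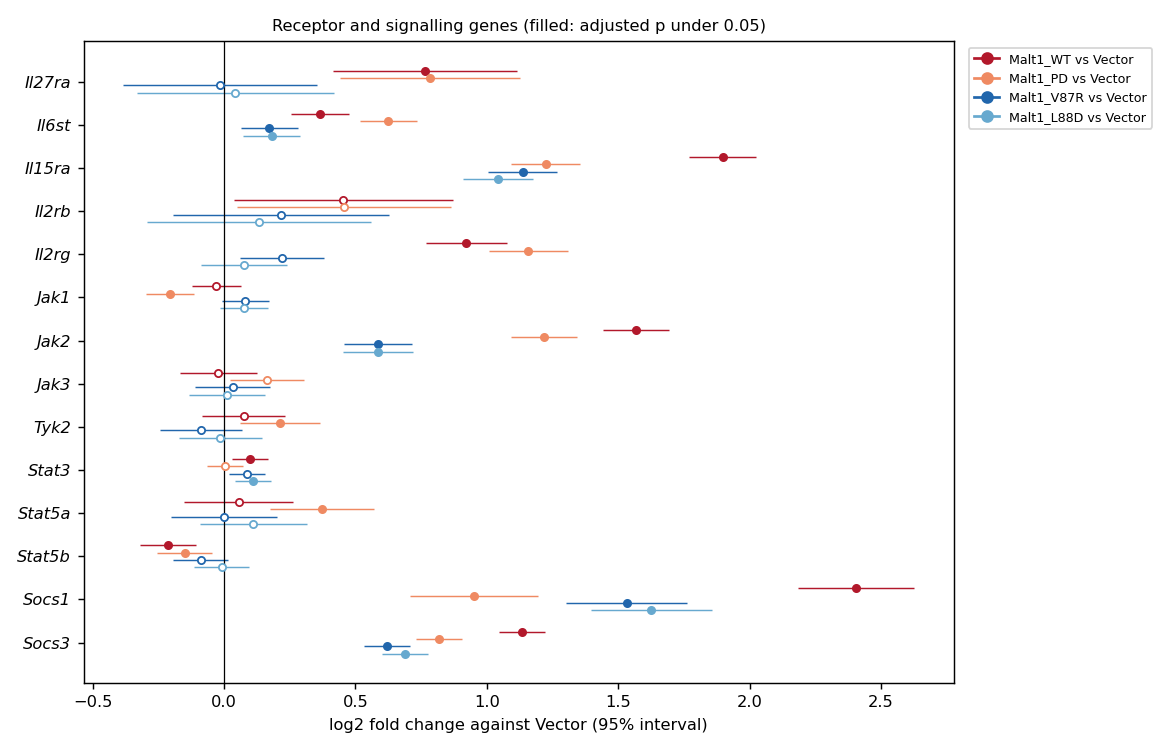
Log2 fold changes against Vector, with 95% intervals, of 14 of the 15 tested receptor and signalling genes in Malt1_WT, Malt1_PD, Malt1_V87R and Malt1_L88D cells; filled points passed the test. Il15ra is to the right of 0 with every construct, farthest in Malt1_WT (1.90), while Il2rg is at 0.92 in Malt1_WT and 1.16 in Malt1_PD and closer to 0 in Malt1_V87R (0.22) and Malt1_L88D (0.08).

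The transcription factors and RNA-decay proteins known to act on these cytokine genes were also measured. The list held 19 genes, of which 17 were tested; Spi1 and Batf3, which mark the myeloid lineages that usually make interleukin-12, had 0 to 6 counts per library. In Malt1_WT against Vector 16 of the 17 were higher and none lower (median log2 0.917), and in Malt1_PD against Vector 17 of 17 were higher (0.724). In Malt1_V87R against Vector 10 were higher (0.173), and in Malt1_L88D against Vector 10 were higher and 1, Rela, was lower (0.227). Against Malt1_WT, 14 were lower and none higher in Malt1_V87R, and likewise in Malt1_L88D. Of all tested genes, 7.09% (Malt1_V87R), 9.09% (Malt1_L88D), 22.8% (Malt1_PD) and 27.3% (Malt1_WT) were called higher against Vector. The shares called lower against Malt1_WT were 22.4% for Malt1_L88D and 23.5% for Malt1_V87R. Medians over all genes against Vector lay between -0.0105 (Malt1_WT) and -0.00232 (Malt1_V87R). The list was chosen with earlier results of these data known.

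Nfkb1 and Nfkb2, the genes of the NF-kB precursors p105 and p100, were lower in both death-domain mutants than in Malt1_WT, as Il23a was (Nfkb1, adjusted p = 1.72e-16 in Malt1_V87R and 1.04e-16 in Malt1_L88D). Nfkb2 averaged 221.8 ± 6.44 CPM in Malt1_WT, 235.7 ± 11.2 in Malt1_PD, 91.1 ± 1.21 in Malt1_V87R, 91.5 ± 2.31 in Malt1_L88D and 89.7 ± 4.51 in Vector, a rise of 2.47-fold in Malt1_WT (adjusted p = 3.35e-17) and 2.62-fold in Malt1_PD (1.93e-17), with no call in Malt1_V87R (0.837) or Malt1_L88D (0.761). Nfkb1 was 2.30-fold of Vector in Malt1_WT, 2.92-fold in Malt1_PD, 1.15-fold in Malt1_V87R and 1.12-fold in Malt1_L88D, each past the test. Like Il23a, both were as high in Malt1_PD as in Malt1_WT or higher.

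Irf1, an activator of interferon-responsive promoters that include those of Il12a and Il15, differed from that order. It averaged 422.2 ± 21.4 CPM in Malt1_WT, 101.8 ± 4.60 in Malt1_PD, 360.4 ± 9.06 in Malt1_V87R, 348.3 ± 5.20 in Malt1_L88D and 56.8 ± 1.67 in Vector. Against Vector this was 7.43-fold in Malt1_WT, 1.79-fold in Malt1_PD, 6.35-fold in Malt1_V87R and 6.13-fold in Malt1_L88D, all past the test. The means thus descended in the order Malt1_WT, death-domain mutants, Malt1_PD, Vector.

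Zfp36, whose protein tristetraprolin binds AU-rich elements and promotes decay of cytokine transcripts, averaged 103.7 ± 20.8 CPM in Malt1_WT, 46.3 ± 2.13 in Malt1_PD, 19.6 ± 0.0559 in Malt1_V87R, 21.1 ± 0.696 in Malt1_L88D and 12.8 ± 0.902 in Vector. Arid5a, an RNA-binding protein that stabilises inflammatory transcripts, averaged 8.28 ± 1.29 CPM in Malt1_WT, 5.52 ± 0.117 in Malt1_PD, 4.05 ± 0.596 in Malt1_V87R, 4.01 ± 0.0913 in Malt1_L88D and 2.12 ± 0.483 in Vector. Both passed the test against Vector with every construct. Cebpb, a bZIP factor of inflammatory genes, averaged 354.1 ± 28.2 CPM in Malt1_WT, 285.5 ± 15.8 in Malt1_PD, 195.0 ± 5.94 in Malt1_V87R, 202.4 ± 5.70 in Malt1_L88D and 172.7 ± 13.4 in Vector, and it also passed with every construct, narrowly in Malt1_V87R (adjusted p = 0.0498). For these 3 genes the means descended in the order Malt1_WT, Malt1_PD, death-domain mutants, Vector.

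**Figure D4:**
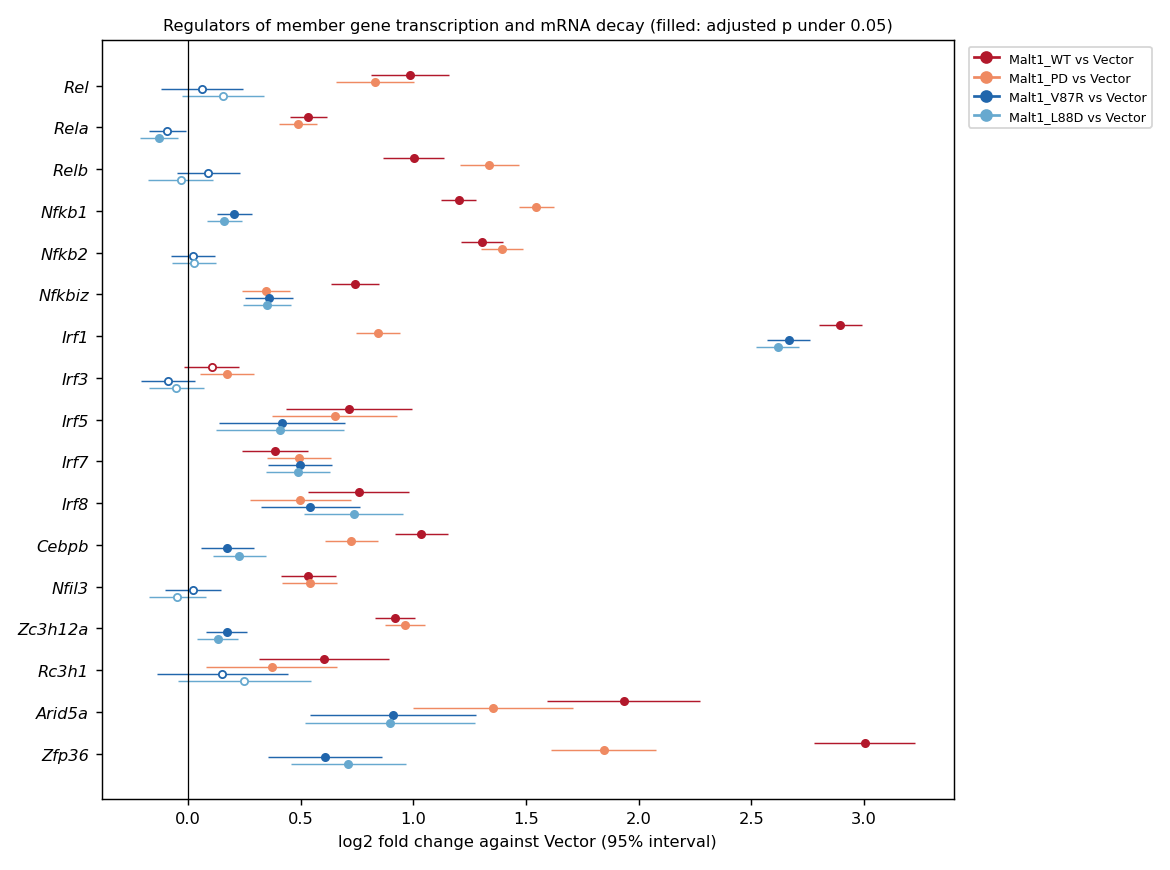
Log2 fold changes against Vector, with 95% intervals, of the 17 tested regulators of these cytokine genes in Malt1_WT, Malt1_PD, Malt1_V87R and Malt1_L88D cells; filled points passed the test. Nfkb2 is near 0 in Malt1_V87R (0.02) and Malt1_L88D (0.03) and above 1 in Malt1_WT and Malt1_PD, while Irf1 is at 2.67 and 2.62 in Malt1_V87R and Malt1_L88D and at 0.84 in Malt1_PD.

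Genes whose levels followed each transcript most closely were ranked by Pearson's r of log2 CPM over the 15 libraries, among 11318 named genes; the libraries fall into the same 5 groups for every gene, so r largely follows the group means and is given as a description. For Il23a these were Hbegf, a growth factor of the EGF family (r = 0.9968), Lbh (0.9958) and Il1rn, the interleukin-1 receptor antagonist (0.9955). Hbegf averaged 125.3 CPM in Malt1_WT, 139.2 in Malt1_PD, 40.1 in Malt1_V87R, 42.1 in Malt1_L88D and 34.1 in Vector. For Il12b they were Layn (0.9608), the chemokine Ccl5 (0.9571), Adm, which encodes adrenomedullin (0.9521), Ccdc137 (0.9517) and Plet1 (0.9457). Ccl5 averaged 42.3 CPM in Malt1_WT, 14.2 in Malt1_PD, 10.3 in Malt1_V87R, 10.6 in Malt1_L88D and 9.39 in Vector, and Plet1 14.3 CPM in Malt1_WT, 5.22 in Malt1_PD and 4.02 in Vector. For Il15 they were the kinase gene Pim2 (0.9444), Neurl3 (0.926) and Ikzf4 (0.9089). Among the cytokine genes themselves r was 0.788 for Il23a with Il12b, 0.84 for Il12b with Il15 and 0.549 for Il23a with Il15.

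Since leukocytes are the usual source of these cytokines, markers of other cells were measured beside them. Of 24 macrophage and dendritic cell markers, 14 were tested, and their summed level was 95.8 to 97.2 CPM in Malt1_WT, 88.5 to 97.3 in Malt1_PD, 47.6 to 53.6 in Malt1_V87R, 53.0 to 73.0 in Malt1_L88D and 41.5 to 46.2 in Vector. Against Vector, 11 were higher in Malt1_WT and 11 in Malt1_PD, 3 in Malt1_V87R and 7 in Malt1_L88D, and none was lower. The matching shares of all tested genes called higher were 7.09% (Malt1_V87R), 9.09% (Malt1_L88D), 22.8% (Malt1_PD) and 27.3% (Malt1_WT). The summed level was thus highest in the groups with high Il23a, while single markers differed in their order. Cd14 averaged 23.4 CPM in Malt1_WT, 22.9 in Malt1_PD, 8.34 in Malt1_V87R, 8.36 in Malt1_L88D and 8.03 in Vector. Flt3 was 7.33-fold of Vector in Malt1_WT (adjusted p = 5.3e-07) and 9.46-fold in Malt1_PD (5e-08), with no call in the death-domain mutants. Ciita, the activator of MHC class II genes, ran otherwise, at 7.23-fold of Vector in Malt1_WT (8.4e-08), 9.92-fold in Malt1_V87R (2.07e-08) and 9.47-fold in Malt1_L88D (3.67e-08), and 0.835-fold in Malt1_PD (0.713). At the low end, Cd209a was at 0 in all libraries, and Ptprc (the leukocyte antigen CD45) and Fcgr1 had at most 5 counts in each. Ptprc had 1, 1 and 2 counts in Malt1_WT, 2, 2 and 3 in Malt1_PD, 0, 0 and 2 in Malt1_V87R, 1, 2 and 5 in Malt1_L88D, and 0, 0 and 2 in Vector.

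Some macrophage markers were highest in Malt1_WT, as Il12b was, and others were not. Cd68 averaged 25.2 ± 1.53 CPM in Malt1_WT, 19.0 ± 1.13 in Malt1_PD, 11.4 ± 0.671 in Malt1_V87R, 14.6 ± 1.35 in Malt1_L88D and 12.04 ± 0.514 in Vector. Cd74 averaged 10.7 CPM in Malt1_WT, 6.42 in Malt1_PD, 5.66 in Malt1_V87R, 4.44 in Malt1_L88D and 2.7 in Vector, and Mrc1 2.60 CPM in Malt1_WT, 1.78 in Malt1_PD, 0.996 in Malt1_V87R, 0.794 in Malt1_L88D and 0.697 in Vector. Adgre1, which encodes the macrophage antigen F4/80, had 19, 18 and 22 counts in Malt1_WT, 12, 12 and 8 in Malt1_PD, 1, 2 and 4 in Malt1_V87R, 1, 17 and 15 in Malt1_L88D, and 2, 1 and 5 in Vector. These were lower in Malt1_PD than in Malt1_WT, and the next genes were higher there. Lyz2 had 71, 120 and 37 counts in Malt1_WT, 296, 243 and 242 in Malt1_PD, 64, 119 and 124 in Malt1_V87R, 87, 411 and 274 in Malt1_L88D, and 123, 91 and 116 in Vector. The C1q genes summed to 3, 4 and 0 counts in Malt1_WT, 22, 17 and 24 in Malt1_PD, 0, 9 and 2 in Malt1_V87R, 5, 32 and 22 in Malt1_L88D, and 4, 3 and 1 in Vector. Of 9 markers of B, T and NK cells none was tested and Ncr1 and Nkg7 were at 0 in all libraries, with a summed level of 0.476 to 1.5 CPM. Among mammary and epithelial markers, Krt8 averaged 89.6 CPM in Malt1_WT, 115.6 in Malt1_PD, 89.9 in Malt1_V87R, 95 in Malt1_L88D and 116.6 in Vector, while Krt18 and Cdh1 had at most 11 counts in a library and the mesenchymal gene Vim averaged 2446 CPM in Malt1_WT and 3798 CPM in Vector. The part of cells other than E0771 in the Il23a, Il12b and Il15 values was not tested.

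**Figure D5:**
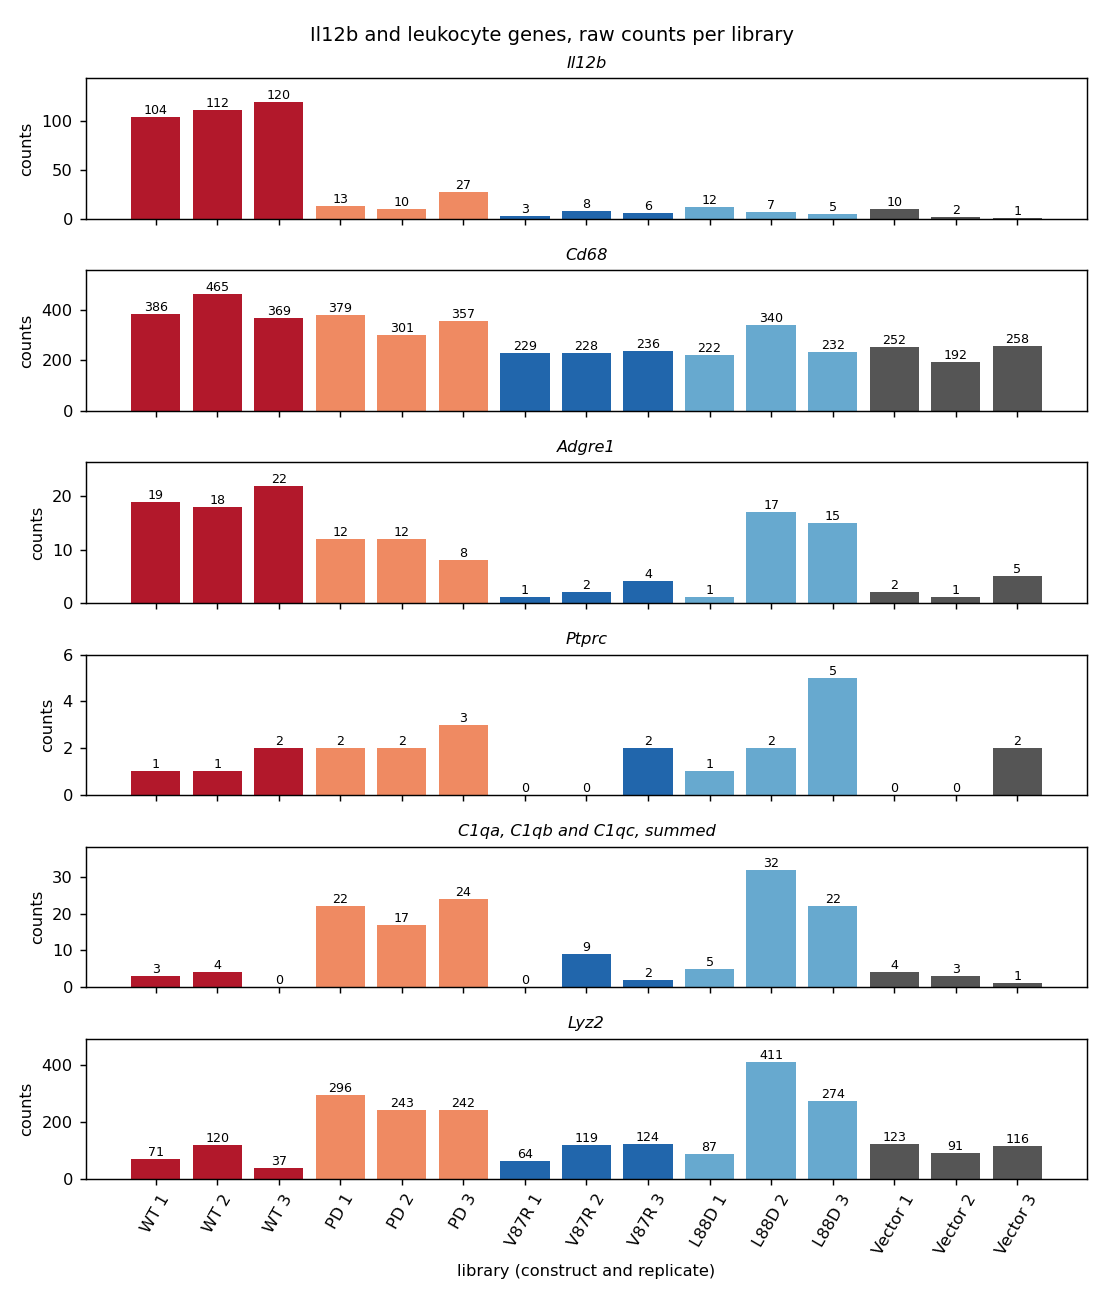
Counts of Il12b and of the leukocyte genes Cd68, Adgre1, Ptprc, C1q (summed) and Lyz2 in each library, by group. Il12b is at 104 to 120 counts in Malt1_WT, where Adgre1 is at 18 to 22 and Lyz2 at 37 to 120, and at 10 to 27 counts in Malt1_PD, where Adgre1 is at 8 to 12 and Lyz2 at 242 to 296.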

How the data were processed

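Total RNA of 15 E0771 libraries (5 groups of 3) was made into directional NEBNext Ultra II libraries and read as paired ends on a NovaSeq, per the labels. The authors deposited whole-number read counts per gene symbol. The submitters' processing notes name the build GRCm38.p6, the trimmer Trim Galore 0.6.0, the aligner STAR 2.7.3a and the counter featureCounts 1.6.3; annotation release, strand setting and treatment of multimapping reads: not given in the sources used here. Columns were matched to groups by name; those named C461A were taken as Malt1_PD, the only construct without columns of its own name.

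From these counts, edgeR 4.0.16 in R 4.3.3 was used with TMM factors (0.9733 to 1.015), filterByExpr by group (14571 of 55571 rows kept, cutoff 0.525 CPM), a quasi-likelihood fit of all 15 libraries and two-sided tests adjusted by Benjamini-Hochberg with a threshold of 0.05. Totals were 15471746 to 21458457 counts and the common biological coefficient of variation 4.61%. CPM is over the whole library total times its factor. Exon lengths and positions are from GENCODE M21 and promoters from RefSeq (GRCm38.p6). The script was tested on simulated counts.

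The members and gene lists were chosen with earlier results of these data known. Named genes were all 6 cytokine genes, all receptor genes, the 4 signalling genes with the smallest adjusted p and the 6 regulators with the largest change in Malt1_WT against Vector, and the 5 (Il12b) or 3 genes of highest r. A signalling gene and a marker are not reported here. Alternatives were relative log expression or upper-quartile scaling, no filter, a replicate block, only the 6 libraries compared, DESeq2 1.42.0 and leaving out each library; for the regulators and for the receptors in Malt1_PD against Malt1_WT they were added after the data were seen. Libraries that share replicate numbers were checked for pairing.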

Additional observations from a re-analysis of the deposited data

How the results depend on the processing

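No called log2 difference of Il23a or Il15 changed sign under any alternative, and Il23a and Il15 stayed on the same side of the threshold in every comparison under both other scalings, no filter, the replicate block, the 6 libraries alone and DESeq2. Without the filter on low counts, 2 genes in place of 1 were called in Malt1_PD against Vector, and 3 in place of 2 in Malt1_WT against Vector (3 also by DESeq2) and in Malt1_V87R against Malt1_WT, the added one being Il27. Leaving out 1 library gave 0 to 1 called genes in Malt1_V87R against Vector, 0 to 1 in Malt1_L88D against Vector and 1 to 2 in Malt1_L88D against Malt1_WT; the libraries concerned stand beside the results. The log2 difference of Il12b in Malt1_PD against Malt1_WT ran from -3.43 to -2.71 over left-out libraries and from -2.94 to -2.90 over the other settings, and that in Malt1_L88D against Malt1_WT was -4.43 without Malt1_L88D replicate 1, in place of -3.94. Regulators called in Malt1_PD against Malt1_WT numbered 11 without Malt1_PD replicate 2, in place of 7. Of all genes, upper-quartile scaling made 43.2% of calls higher in Malt1_PD against Malt1_WT, in place of 53.5%. Called genes in Malt1_V87R against Vector numbered 1121 without Vector replicate 1 and 1092 without Malt1_V87R replicate 2, in place of 1690, and in Malt1_L88D against Vector 1507 without Vector replicate 1, in place of 2512, where 63.6% in place of 52.7% were higher. Between Malt1_V87R and Malt1_L88D, 16 genes were called without the filter, 24 with only those 6 libraries and 3 without Malt1_L88D replicate 1, in place of 0. The causes were not tested. Replicate numbers showed little pairing of the samples: over 24 same-numbered pairs the correlation of deviations ran from -0.0513 to 0.15. A replicate block raised the genes called in every comparison that had any. In Malt1_V87R against Vector they numbered 2115 in place of 1690, and in Malt1_L88D against Vector 3068 in place of 2512. Whether replicate numbers mark a shared batch was not tested. With the block, the Il12b log2 difference in Malt1_PD against Malt1_WT was -2.93. Called genes of the family numbered 2 in Malt1_WT against Vector, as without it. Il12a, Il27 and Ebi3 are limited by depth to group sums of at most 20 counts.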
